A study of Mus musculus with 6 samples.

Results

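The lysosome is the acidic compartment in which cells take apart proteins, glycans, lipids and nucleic acids delivered by endocytosis and autophagy. Its lumen holds soluble hydrolases, its limiting membrane is coated by heavily glycosylated proteins, and the vacuolar proton pump (V-ATPase) keeps the lumen acid. In liver these genes serve hepatocytes, which run much autophagy, and Kupffer cells, the resident macrophages, which take up particles from blood. The genes described here are the lysosomal hydrolases and their cofactors, the lysosomal membrane proteins and the V-ATPase subunits. They were chosen by name, as 36 listed genes together with every gene whose symbol starts with Atp6v or with Lamp and a digit, and each was read by its brightest probe set among those annotated to 1 gene alone. This gave 55 of the 12393 genes with such a probe set: 33 of the 36 listed genes, 19 V-ATPase subunit genes and 3 Lamp genes. Cd63, Aga, Arsb and the V0 subunit gene Atp6v0c were not analysed here, and Lamp3 was left out because its probe set is annotated to several genes.

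The samples were livers of male mice aged 12 weeks, 3 from an earlier published chromogranin A knockout line (Chga_KO) and 3 from wild-type controls (WT), each on 1 Affymetrix array. Chromogranin A is stored in the hormone granules of neuroendocrine cells and is cut into several peptides. The labels count 3 mice in each group and say nothing of genetic background, litters or feeding. A p-value here therefore rests on the spread among these 6 livers alone. Values are scaled probe set intensities in arbitrary units. A change is Chga_KO minus WT on the log2(intensity + 16) scale, with the standard error (SE) of the limma fit. For SE and p-value the fit draws the spread of each probe set toward that of other probe sets of similar signal.

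Pearson's r between arrays over all probe sets, which are not independent, was 0.933 to 0.948 for arrays of the same group and 0.933 to 0.943 for arrays of different groups. A background level was set on each array from dim bacterial control probe sets, and between 64.4% of probe sets on the second Chga_KO array and 76.9% on the third WT array were above it. The probe set of Chga itself read 61.5, 44.5 and 231 in Chga_KO livers against 167, 185 and 42.5 in WT livers. These values overlap and are dim, so Chga does not check the group labels here. Hepatocyte markers were above background on all 6 arrays for 10 of 10 genes, and none of the 5 cholangiocyte markers passed the filter on dim probe sets.

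Many lysosomal genes are known to carry a palindromic E-box, CACGTG, in the promoter, the core of the site bound by the MiT/TFE transcription factors such as TFEB. Promoter stretches are shown for Lamp1, as the main membrane protein gene, and for those genes at an unadjusted p under 0.05 that hold the core. They come from RefSeq promoters of build GRCm38.p6 running from 250 bases before to 50 bases after the annotated start, and 47 of the 55 genes matched by symbol. The CACGTG core, which reads the same on both strands, was found in 16 of these 47 genes (34.0%) and in 8.09% of all 27025 genes with a promoter. The longer form TCACGTGA, which contains the core, was found in 7 of 47 genes (14.9%) and in 1.12% of all genes. Capitals mark the core in the following stretches.
Lamp1, chr8:13159088-13159163, plus strand: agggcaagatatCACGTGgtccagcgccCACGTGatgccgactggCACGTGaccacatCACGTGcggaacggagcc
Mcoln1, chr8:3500436-3500491, plus strand: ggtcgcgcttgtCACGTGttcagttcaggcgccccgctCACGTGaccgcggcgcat
Ctsa, chr2:164833749-164833795, plus strand: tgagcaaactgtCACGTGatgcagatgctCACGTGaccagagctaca
Glb1, chr9:114401018-114401047, plus strand: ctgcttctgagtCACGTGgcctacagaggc
Lgmn, chr12:102439124-102439153, minus strand: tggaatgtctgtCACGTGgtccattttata
Ctsl, chr13:64370739-64370768, minus strand: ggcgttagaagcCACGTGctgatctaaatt
The Neu1 promoter, shown whole because Neu1 had the smallest p of the set, holds 0 copies of the core.
Neu1, chr17:34931003-34931302, plus strand: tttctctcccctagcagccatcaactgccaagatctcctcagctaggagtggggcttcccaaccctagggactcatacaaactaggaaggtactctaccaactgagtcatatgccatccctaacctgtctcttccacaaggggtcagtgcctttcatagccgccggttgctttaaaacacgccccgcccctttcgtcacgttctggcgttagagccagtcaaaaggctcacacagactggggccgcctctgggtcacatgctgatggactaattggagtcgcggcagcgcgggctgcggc

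The comparison of Chga_KO with WT liver asks whether transcripts of the lysosome differ when Chga is absent. Of the 48 genes that passed the filter on dim probe sets, 22 were higher and 26 lower in Chga_KO livers. Their median log2 change was -0.025 against -0.015 over all 8047 genes, and in a signed median opposite changes cancel. Without regard to sign, the median size of the log2 change was 0.194 against 0.158 over all genes. None of the 48 passed limma with Benjamini-Hochberg adjustment over all probe sets at 0.05, a threshold that 0.423% of all genes and 0.376% of all kept probe sets passed. At an unadjusted p under 0.05 there were 11 genes, 4 higher and 7 lower, which is 22.9% of the 48. Over all genes the share was 10.3%, with 4.57% higher and 5.69% lower, and over all kept probe sets it was 9.97%. Lysosomal genes had a median SE of 0.134 against 0.182 over all genes. Among genes in the upper 40% by mean signal 12.0% stood at an unadjusted p under 0.05. The part of precision or signal in the 22.9% was not tested. The groups did not overlap for 15 of the 48 genes, 6 higher and 9 lower, where 15.6% of all genes did not, 7.77% higher and 7.84% lower. Leaving out 1 array moved these counts: without Chga_KO replicate 1 there were 9 higher and 3 lower genes at an unadjusted p under 0.05, and 4 lower genes without WT replicate 1 or without WT replicate 3.

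**Figure D1:**
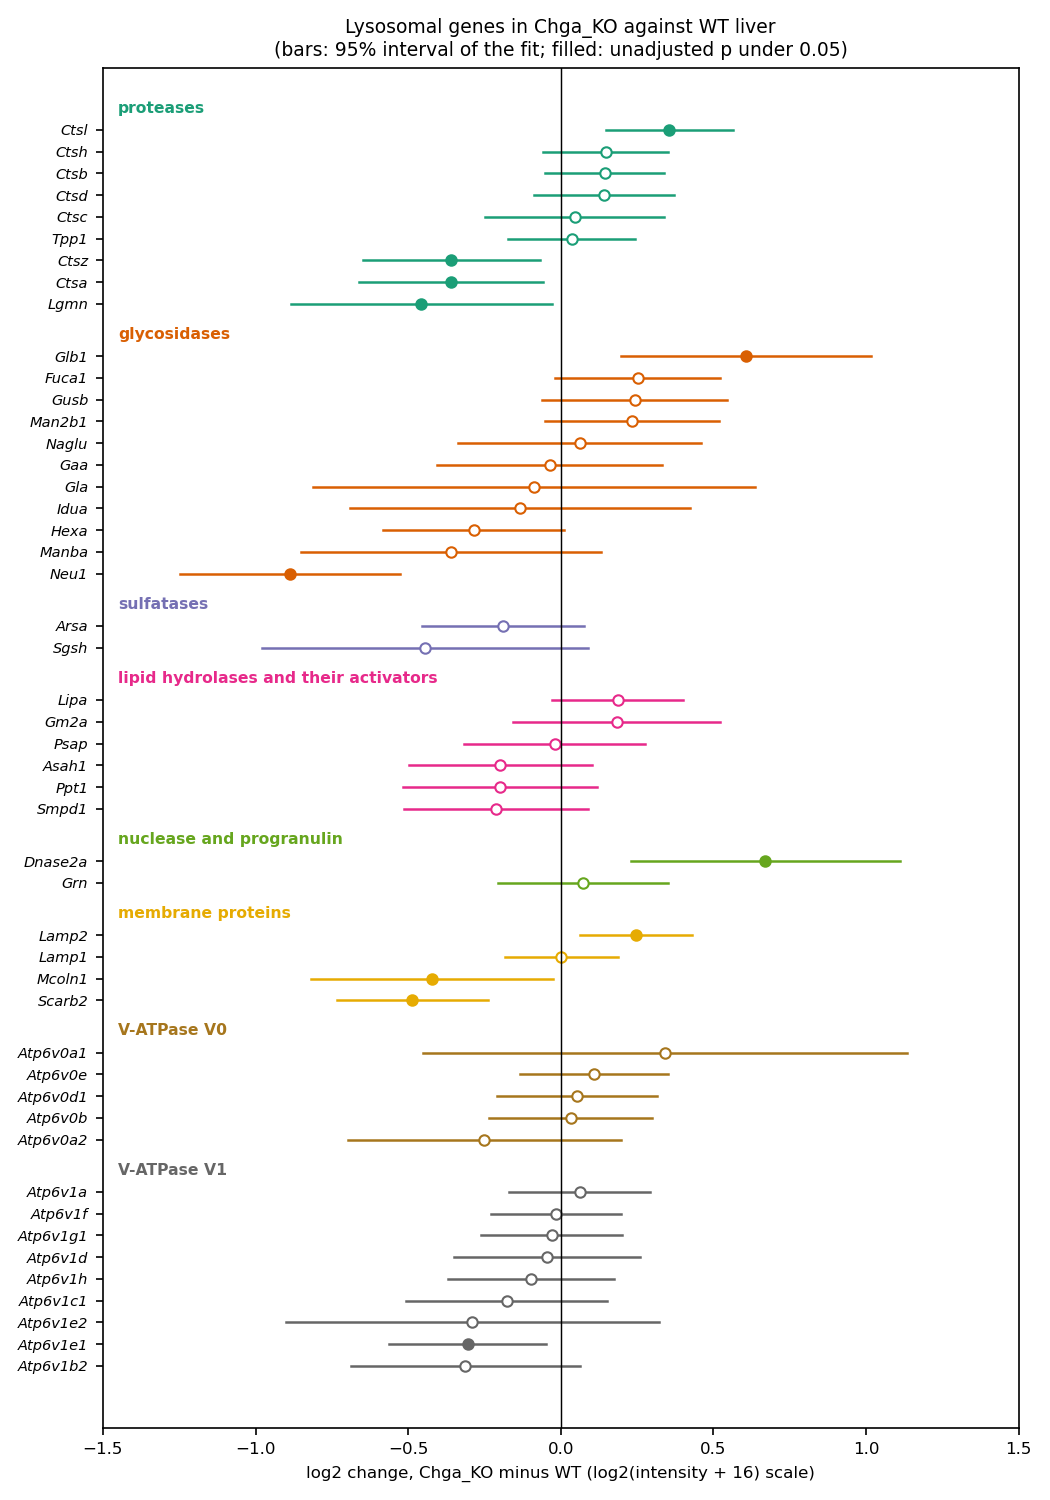
Log2 change (Chga_KO minus WT, horizontal axis) of the 48 lysosomal genes that passed the filter, grouped by role, with the 95% interval of the fit as bars and filled points at an unadjusted p under 0.05. Neu1 lies farthest from 0 at -0.89, and 13 of the 14 V-ATPase subunits have intervals that include 0.

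Soluble proteases include the cathepsins and the asparaginyl endopeptidase legumain. Of 9 measured, 6 were higher and 3 lower in Chga_KO livers, with a median of 0.045 and 0 past the adjusted threshold. Ctsl, a cysteine cathepsin, read 44621, 50358 and 45804 in Chga_KO livers and 33505, 39952 and 36697 in WT livers. All 3 Chga_KO arrays were above all WT arrays, by 0.36 ± 0.09 on the log2 scale (SE, n = 3 per group), or 1.28-fold, with adjusted p = 0.176 (limma). Ctsz, a carboxypeptidase also called cathepsin X, read 15387, 17764 and 21580 in Chga_KO livers and 24794, 20603 and 24358 in WT livers. Chga_KO replicate 3 lay above the lowest WT array, and the change was -0.36 ± 0.13 (adjusted p = 0.388). The other 2 kept probe sets of Ctsz stood at -0.48 and -0.19, on the same side. Lgmn, which encodes legumain, read 872, 1025 and 1053 in Chga_KO livers and 1464, 1506 and 1119 in WT livers. Its groups did not overlap, at -0.46 ± 0.19 (adjusted p = 0.470).

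Ctsb, Ctsd and Tpp1 stood nearer to WT. Ctsb, an abundant cysteine protease, read 42032, 47093 and 48352 in Chga_KO livers and 43291, 41274 and 39699 in WT livers, at 0.14 ± 0.09. Ctsd, the main aspartic protease, read 10160, 9839 and 10744 in Chga_KO livers and 10145, 8792 and 8974 in WT livers, at 0.14 ± 0.10. Both sets of values overlap, and the 95% intervals, -0.050 to 0.34 for Ctsb and -0.088 to 0.37 for Ctsd, bound any increase. Ctsh, an aminopeptidase, was at 0.15 ± 0.09, and Ctsc, which activates serine proteases of granules, at 0.045 ± 0.13. Tpp1, a tripeptidyl peptidase, was at 0.036 ± 0.09 by its brightest probe set. Its other kept probe set stood on the opposite side at -0.12 ± 0.12, without overlap (adjusted p = 0.790, limma).

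Neu1, Glb1 and Ctsa encode the sialidase, the beta-galactosidase and the protective protein of 1 lysosomal multienzyme complex, in which Ctsa stabilises the other enzymes. All of them were among the 11 genes at an unadjusted p under 0.05, and their directions differed. Neu1 read 1298, 1266 and 1268 in Chga_KO livers and 2811, 2058 and 2319 in WT livers. The Chga_KO arrays lay close together below every WT array, 1.85-fold lower, at -0.89 ± 0.16 with a 95% interval of -1.25 to -0.53. The adjusted p was 0.0504, just over the threshold, and it ran from 0.0395 to 0.214 over the processing alternatives and single arrays left out, under 4 of which Neu1 passed. Ctsa read 7718, 10373 and 7237 in Chga_KO livers and 11012, 10496 and 10604 in WT livers. Its groups did not overlap, though the second Chga_KO array came close to WT, at -0.36 ± 0.14 (adjusted p = 0.412). Glb1 went the other way, with 1637, 1471 and 1490 in Chga_KO livers and 823, 1110 and 1097 in WT livers. Every Chga_KO array was above every WT array, 1.52-fold higher, at 0.61 ± 0.19 (adjusted p = 0.264).

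Probe sets of Neu1 did not all move alike. The other kept probe set, which is dimmer, read 341, 493 and 424 in Chga_KO livers and 294, 418 and 390 in WT livers, at 0.18 ± 0.35. Another, too dim to pass the filter, read 20.1, 39.6 and 176 in Chga_KO livers and 602, 296 and 650 in WT livers. It was above background on 1 of 3 Chga_KO arrays and 3 of 3 WT arrays, and its groups did not overlap, in the direction of the brightest probe set. The mean over the 2 kept probe sets was -0.35.

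**Figure D2:**
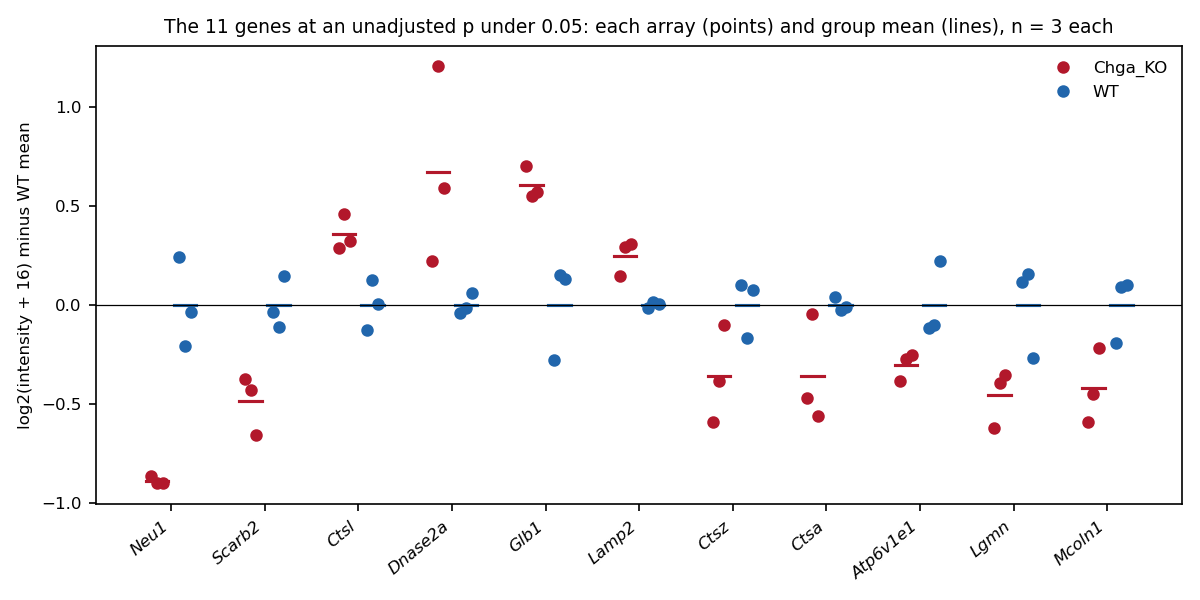
Each array's log2(intensity + 16) less the WT mean for the 11 genes at an unadjusted p under 0.05, Chga_KO left of WT, with points for arrays and lines for group means (n = 3 each). The Neu1 values of the Chga_KO arrays are nearly equal, while those of Dnase2a are spread and its second Chga_KO array stands highest.

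The remaining glycosidases cut sugars from glycoproteins, glycolipids and glycosaminoglycans. With Neu1 and Glb1 there were 11 measured, 5 higher and 6 lower in Chga_KO livers, with a median of -0.037 and 0 past the adjusted threshold. Hexa, the alpha subunit of beta-hexosaminidase, read 4445, 3566 and 4180 in Chga_KO livers and 4705, 5572 and 4589 in WT livers. Its groups did not overlap, at -0.29 ± 0.13 (adjusted p = 0.520). Gusb, the beta-glucuronidase, read 2513, 2497 and 2681 in Chga_KO livers and 2390, 2051 and 2068 in WT livers. Its groups did not overlap either, at 0.24 ± 0.14 (adjusted p = 0.604), but its other kept probe set stood on the opposite side at -0.24 ± 0.30, with overlap. Gaa, the acid glucosidase that breaks down lysosomal glycogen, read 4019, 5090 and 3641 in Chga_KO livers and 4445, 3570 and 5067 in WT livers. These overlap widely, at -0.037 ± 0.17, with a 95% interval of -0.41 to 0.33. Fuca1 (0.25 ± 0.12) removes fucose, Man2b1 (0.23 ± 0.13) and Manba (-0.36 ± 0.22) remove mannose, and each of these overlapped between groups. Naglu (0.063 ± 0.18) and Idua (-0.14 ± 0.25), which act on heparan sulphate, and the alpha-galactosidase Gla (-0.088 ± 0.33) overlapped as well. A second kept probe set of Idua stood at -0.67 ± 0.33.

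Both measured sulfatases were lower in Chga_KO livers by their brightest probe sets, without passing. Sgsh, a heparan sulphate sulfamidase, read 565, 537 and 498 in Chga_KO livers and 759, 660 and 780 in WT livers. The groups did not overlap, at -0.44 ± 0.24 (adjusted p = 0.588), but its other kept probe set stood at 0.21 ± 0.44, with overlap. Arsa, which desulphates sulphatide, stood at -0.19 ± 0.12 with overlapping groups. All 5 probe sets of the iduronate sulfatase Ids were removed as dim.

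Lipid hydrolases and their activators showed 2 higher and 4 lower of 6 in Chga_KO livers, with a median of -0.11, and 0 at an unadjusted p under 0.05 by the brightest probe set. Lipa, the acid lipase that frees cholesterol and fatty acids from lipoprotein lipids taken up by the cell, read 13327, 14554 and 15578 in Chga_KO livers and 12678, 12487 and 12941 in WT livers. The groups did not overlap, at 0.19 ± 0.10 (adjusted p = 0.577). Its other probe sets stood higher, at 0.31 ± 0.22 and 0.63 ± 0.16, the last at an unadjusted p under 0.05 (adjusted p = 0.149), and the mean over all 3 was 0.38. Psap, the precursor of the saposins that help sphingolipid hydrolases, read 10653, 11915 and 13917 in Chga_KO livers and 13306, 13291 and 10418 in WT livers. It overlapped fully, at -0.020 ± 0.13, with a 95% interval of -0.32 to 0.28. The acid sphingomyelinase Smpd1 (-0.21 ± 0.14), the acid ceramidase Asah1 (-0.20 ± 0.14) and the thioesterase Ppt1 (-0.20 ± 0.14) lay slightly below 0, though the other kept probe set of Ppt1 stood at 0.24 ± 0.19. The ganglioside activator Gm2a (0.18 ± 0.15) lay above it.

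Dnase2a, the acid DNase that digests engulfed DNA, read 9440, 18684 and 12194 in Chga_KO livers and 7866, 8012 and 8455 in WT livers. All Chga_KO arrays were above WT but were spread, at 0.67 ± 0.20 (adjusted p = 0.248), and the change was 0.40 without Chga_KO replicate 2. Grn, which encodes progranulin, read 25486, 34858 and 33746 in Chga_KO livers and 30787, 26755 and 31347 in WT livers, at 0.072 ± 0.13. These overlap, and its 3 probe sets stood between 0.028 and 0.072.

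Of 4 measured membrane proteins, 3 were at an unadjusted p under 0.05, where 10.3% of all genes were. Of these, 1 was higher and 2 were lower in Chga_KO livers, and 0 passed the adjusted threshold. Scarb2, also called LIMP-2, which carries beta-glucocerebrosidase to the lysosome, read 13806, 13275 and 11346 in Chga_KO livers and 17453, 16571 and 19794 in WT livers. The groups did not overlap, at -0.49 ± 0.11 or 1.40-fold lower (adjusted p = 0.113), while its other kept probe set stood at -0.053 ± 0.11. Mcoln1, a calcium channel of the lysosomal membrane, read 1035, 1143 and 1344 in Chga_KO livers and 1371, 1672 and 1681 in WT livers. The groups did not overlap, at -0.42 ± 0.18 (adjusted p = 0.477), and its second probe set stood at -0.34 ± 0.16.

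Lamp1 and Lamp2 are the most abundant proteins of the lysosomal membrane. Lamp1 read 41155, 39938 and 42306 in Chga_KO livers and 41928, 38289 and 43167 in WT livers. Its change was 0.0016 ± 0.08, and the 95% interval ran from -0.18 to 0.19. Lamp2, needed for fusion with autophagosomes and known in splice forms, read 42961, 47603 and 48149 in Chga_KO livers and 38455, 39208 and 39034 in WT livers by its brightest probe set. These did not overlap, at 0.25 ± 0.08 (adjusted p = 0.334), but the other 3 probe sets stood at -0.055, -0.082 and 0.012 with overlapping groups. Lamp5 was below background on every array.

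**Figure D3:**
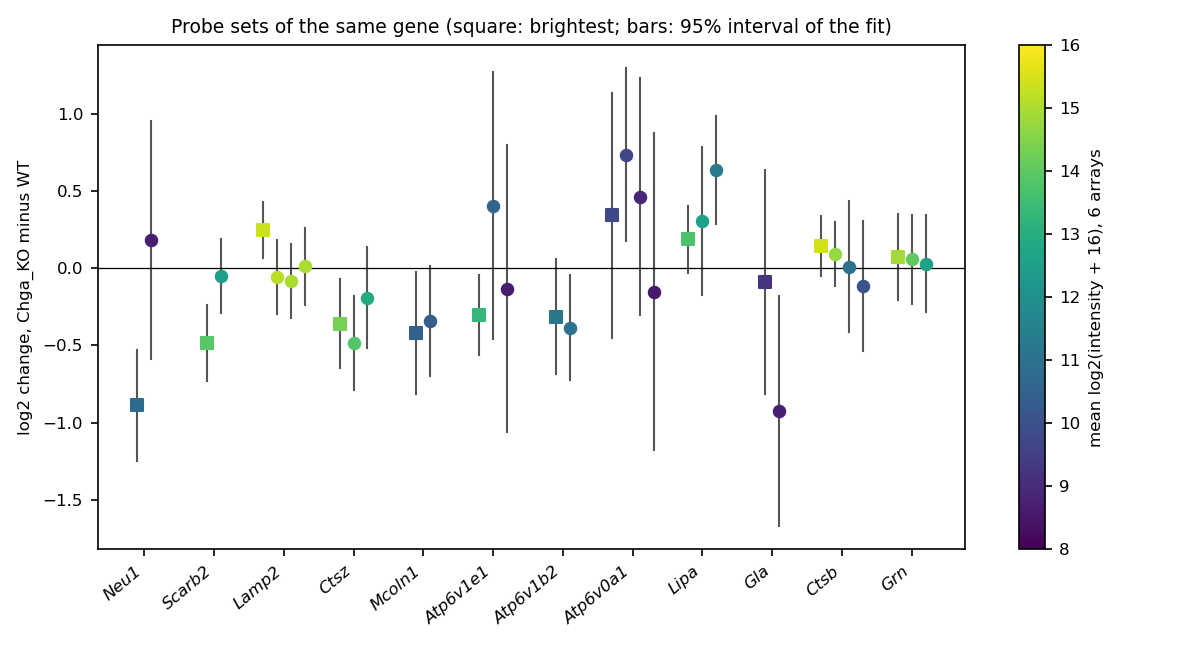
Log2 change (Chga_KO minus WT) of each kept probe set for 12 lysosomal genes that have several, with the brightest as a square, the mean signal as colour and the 95% interval of the fit as bars. The 3 probe sets of Ctsz and the 2 of Mcoln1 lie on 1 side of 0, whereas those of Neu1, Lamp2 and Atp6v1e1 lie on both sides.

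The V-ATPase couples a cytosolic V1 sector, which hydrolyses ATP, to a V0 sector in the membrane, which carries the protons. Of 19 subunit genes, 14 passed the filter, and 5 were higher and 9 lower in Chga_KO livers, with a median of -0.037. Of these 14, 0 passed the adjusted threshold and 1 (7.14%) was at an unadjusted p under 0.05, against 10.3% of all genes. All 14 changes lay between -0.31 and 0.34. Among these 14, in the V0 sector 4 of 5 were higher and in the V1 sector 8 of 9 lower, with medians of 0.052 and -0.098. Tcirg1, which encodes a V0 subunit but lacks the Atp6v prefix, is not in these counts. It was lower in Chga_KO livers at -0.23 ± 0.15, without overlap (adjusted p = 0.647, limma), and is counted below with the accessory genes. The difference between the sectors was not tested. The catalytic subunit gene Atp6v1a read 6815, 6244 and 6772 in Chga_KO livers and 6362, 6152 and 6472 in WT livers. These overlap, at 0.062 ± 0.10, with a 95% interval of -0.17 to 0.29.

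Atp6v1e1, a stalk subunit of V1, read 8721, 9407 and 9531 in Chga_KO livers and 10488, 10619 and 13246 in WT livers. The groups did not overlap, at -0.30 ± 0.12 (adjusted p = 0.420), and its other 2 probe sets, at 0.41 ± 0.39 and -0.13 ± 0.42, were loosely set. Atp6v1b2, the B subunit found in most tissues, read 2332, 1628 and 2349 in Chga_KO livers and 2465, 2735 and 2549 in WT livers. It too did not overlap, at -0.31 ± 0.17 (adjusted p = 0.588), and its second kept probe set stood at -0.38 ± 0.15. Atp6v0a1, a membrane subunit, read 1109, 927 and 833 in Chga_KO livers and 380, 994 and 1091 in WT livers. The first WT array stood apart, and the change of 0.34 ± 0.36 became -0.13 without it. The other 3 probe sets stood at 0.74 ± 0.25, 0.46 ± 0.35 and -0.15 ± 0.46. The one at 0.74 read 972, 1136 and 1001 in Chga_KO livers and 859, 536 and 504 in WT livers. Its groups did not overlap (unadjusted p = 0.0147, adjusted p = 0.350, limma). The subunits Atp6v1f (-0.015 ± 0.10), Atp6v1g1 (-0.030 ± 0.10), Atp6v0b (0.032 ± 0.12) and Atp6v0d1 (0.052 ± 0.12) were close to 0. Atp6v0a4, Atp6v0e2, Atp6v1b1, Atp6v1c2 and Atp6v1g2 were removed as dim, and neither Atp6v1b1, the B subunit known from kidney, nor Atp6v1c2 was above background on any array.

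The intervals limit how large a difference these arrays allow for the brightest probe set of each gene. For 32 of the 48 genes the 95% interval of that probe set lay within a 1.5-fold change in either direction, and for 44 within 2-fold. The other genes were Neu1, Dnase2a, Glb1 and Atp6v0a1. Some of the 44 genes had another kept probe set with an interval beyond 2-fold. These included Gla (-1.67 to -0.18), Idua (-1.40 to 0.067) and Atp6v1e1 (-0.46 to 1.27). Among genes with the CACGTG core 16 were kept, 9 higher and 7 lower in Chga_KO livers, with a median of 0.017 against -0.018 for the 24 kept genes with a promoter and no core. Those with the core included 5 of the 11 genes at an unadjusted p under 0.05, where 16 of the 40 kept genes with a promoter held it. These 5 were Ctsl and Glb1 above WT and Ctsa, Lgmn and Mcoln1 below it. A link between the core and the changes was not tested.

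Neu1 and Lgmn also have positions that set them apart. Neu1 lies on chromosome 17 in the class III part of the major histocompatibility complex. Of its 24 nearest genes with a probe set, 12 on each side, 15 passed the filter, 7 higher and 8 lower, with 0 past the adjusted threshold and a median of -0.074. Hspa1b, a stress-induced chaperone next to Neu1 in that order, stood at 1.22 ± 0.36 (adjusted p = 0.243), opposite to Neu1. Lgmn lies on chromosome 12 with 1 protein-coding gene, Golga5, between it and Chga. Golga5 stood at -0.049 ± 0.15 and Itpk1, on the far side of Chga, at -0.32 ± 0.17. Of the 24 genes nearest to Lgmn, 19 passed the filter, 11 higher and 8 lower, with a median of 0.051. The part of these positions in either change was not tested.

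**Figure D4:**
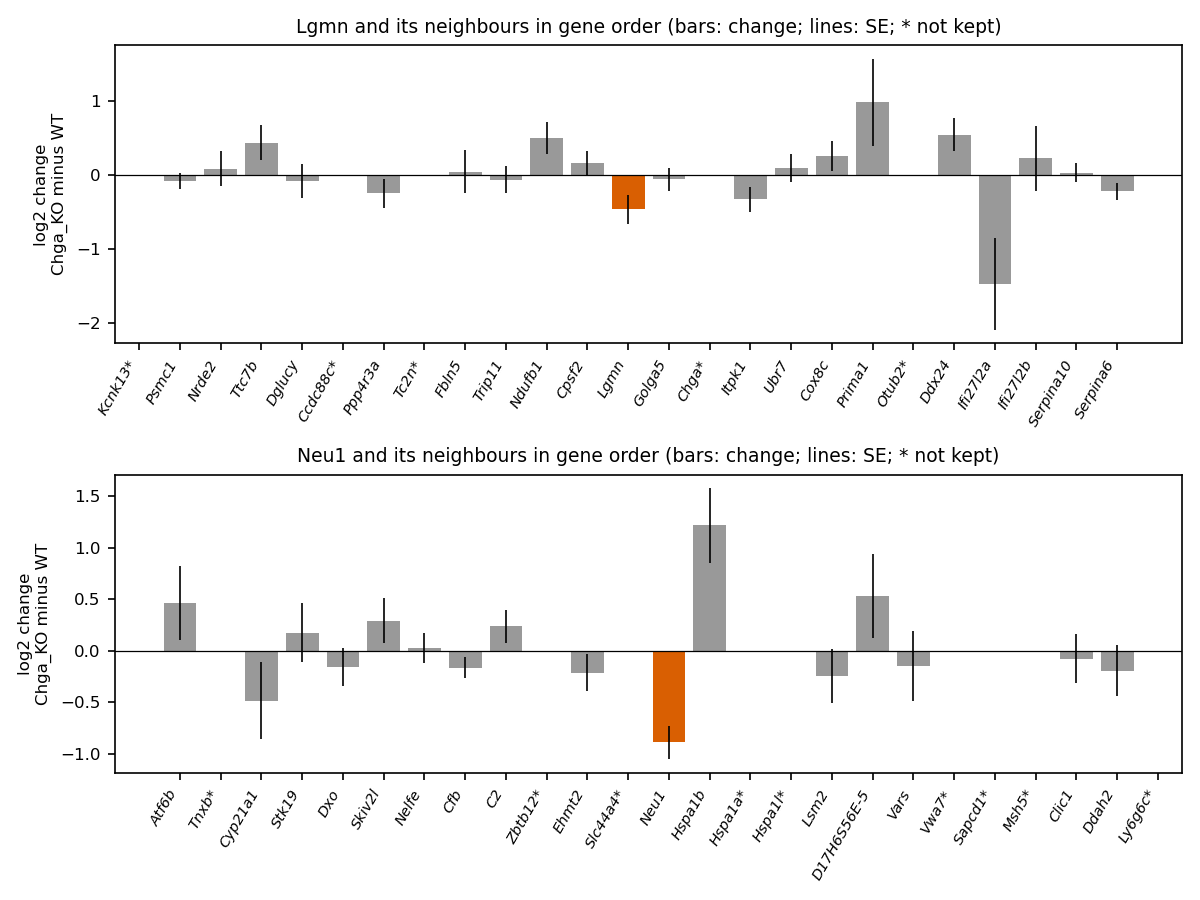
Log2 change (Chga_KO minus WT) with SE for Lgmn (upper panel) and Neu1 (lower panel), in orange, and the 12 nearest genes with a probe set on each side, in gene order; an asterisk marks genes removed as dim. Both genes lie below 0 among neighbours on both sides of 0.

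Genes that serve the lysosome outside these families were read from lists. None of the lists held a gene past the adjusted threshold (limma), which 0.423% of all genes passed. Among 23 other lysosomal enzymes, 12 were higher and 11 lower in Chga_KO livers with a median of 0.011, and 5 (21.7%) were at an unadjusted p under 0.05, against 10.3% of all genes. Ctbs, a chitobiase that trims N-glycans, read 1298, 1580 and 1369 in Chga_KO livers and 2122, 2145 and 2167 in WT livers, without overlap, at -0.60 ± 0.15 (adjusted p = 0.150). The hyaluronidase gene Hyal2 (-0.43 ± 0.15) did not overlap, and the cathepsin genes Ctse (0.47 ± 0.19) and Ctss (-0.40 ± 0.17) did. The direction of Ctse rests on its brightest probe set, since the mean over all its kept probe sets was -0.14.

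Of 22 other membrane proteins of the lysosome, 9 were higher and 13 lower, with a median of -0.056. Of these 22, 2 (9.09%) were at an unadjusted p under 0.05, against 10.3% of all genes. Npc1, which exports cholesterol from the lysosome, read 5819, 6514 and 6653 in Chga_KO livers and 9237, 10328 and 8943 in WT livers. Every Chga_KO array was below every WT array, at -0.58 ± 0.11, and the adjusted p was 0.0541. Slc15a4, a histidine and peptide transporter, read 1676, 1407 and 1467 in Chga_KO livers and 3390, 1978 and 3486 in WT livers, at -0.91 ± 0.22 (adjusted p = 0.122). It passed without WT replicate 2, the lowest of the WT arrays (-1.18, adjusted p = 0.0207). Accessory and assembly genes of the V-ATPase, read together with the V0 subunit gene Tcirg1, made 9. Of these, 2 were higher and 7 lower, with a median of -0.23 and 0 at an unadjusted p under 0.05.

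Delivery genes carry new hydrolases to the lysosome. Of 28 measured, 12 were higher and 16 lower in Chga_KO livers, with a median of -0.024, and 4 (14.3%) were at an unadjusted p under 0.05, against 10.3% of all genes. All 4 were higher, where 4.57% of all genes were. Gga1, a sorting adaptor of the Golgi, read 1095, 1243 and 844 in Chga_KO livers and 367, 658 and 721 in WT livers, at 0.89 ± 0.29 (adjusted p = 0.319). The subunits of the AP-1 clathrin adaptor Ap1m1 (0.40 ± 0.14) and Ap1b1 (0.72 ± 0.26) and the SNARE gene Vti1b (0.22 ± 0.10) likewise did not overlap. Ap1b1 read 4242, 4768 and 5195 in Chga_KO livers and 1709, 3605 and 3811 in WT livers. Its first WT array stood apart, and the change was 0.35 without it. The mannose 6-phosphate receptors, which bind the sorting tag of lysosomal enzymes, stood at -0.15 ± 0.10 for M6pr and 0.18 ± 0.12 for Igf2r, both without overlap.

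Regulators and autophagy genes were read in the same way. Of 16 genes of the MiT/TFE factors and of mTORC1 signalling at the lysosome, 8 were higher and 8 lower, with a median of -0.035. Of these 16, 2 (12.5%) were at an unadjusted p under 0.05, against 10.3% of all genes. Tfeb, a master regulator of lysosomal genes, read 281, 368 and 307 in Chga_KO livers and 686, 645 and 275 in WT livers, with overlap, at -0.63 ± 0.41 (adjusted p = 0.657). Flcn, which acts on the Rag GTPases, stood at -0.54 ± 0.16 and Lamtor4, a subunit of the Ragulator scaffold, at 0.31 ± 0.13, neither overlapping. Of 27 autophagy genes 8 were higher and 19 lower, with a median of -0.049. Of these 27, 3 (11.1%) were at an unadjusted p under 0.05, against the same 10.3%. Gabarapl1, a protein that is joined to autophagosome membranes, read 25395, 30665 and 27631 in Chga_KO livers and 38893, 41664 and 36918 in WT livers. It did not overlap, at -0.49 ± 0.10, and missed the threshold (adjusted p = 0.0635). Atg10 (0.41 ± 0.16) and Atg13 (-0.47 ± 0.20) did not overlap, and the cargo receptor Sqstm1 was at 0.012 ± 0.09. Of the cystatins, inhibitors of cathepsins, both measured genes were higher, with a median of 0.080.

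Macrophages are rich in lysosomes, so their markers are given beside these results. Of 15 measured Kupffer cell and macrophage markers 2 were higher and 13 lower in Chga_KO livers, with a median of -0.25. Of these 15, 0 passed the adjusted threshold and 1 (6.67%) was at an unadjusted p under 0.05, against 10.3% of all genes. That gene was Ctss, counted above among the lysosomal enzymes, and Laptm5 is likewise on both this list and that of lysosomal membrane proteins. The summed intensity over all 19 macrophage genes with a probe set ran from 29103 to 42607 in Chga_KO livers and from 36382 to 45201 in WT livers, which overlap. No marker was at 0; Marco was below background on every array, and 14 of 19 were above background on all 6. The defining genes differed in size of change. Cd68, itself a lysosomal membrane protein of macrophages, stood at -1.40 ± 0.67 with 2 of 3 Chga_KO arrays above background. It read 403, 49.3 and 507 in Chga_KO livers and 708, 652 and 530 in WT livers, and was at -0.45 without Chga_KO replicate 2. Adgre1 stood at -0.13 ± 0.18 and Clec4f at 0.0017 ± 0.21. Stellate cell markers were lower in 8 of 8 (median -0.35), with 0 past the adjusted threshold. Of these 8, 3 (37.5%) were at an unadjusted p under 0.05, against 10.3% of all genes. They were Col3a1 (-0.61 ± 0.18), Lum (-0.55 ± 0.20) and Reln (-0.48 ± 0.17). Hepatocyte markers were higher in 9 of 10, with a median of 0.098 and 0 at an unadjusted p under 0.05. In bulk tissue, fewer cells of a type and less RNA per cell cannot be told apart.

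On single arrays the lysosomal genes outside the V-ATPase had a mean shift from the WT mean of -0.11, -0.021 and -0.0045 in Chga_KO livers and 0.025, -0.050 and 0.025 in WT livers. The V-ATPase genes had -0.023, -0.070 and -0.11 in Chga_KO livers and -0.053, -0.023 and 0.077 in WT livers. The macrophage markers had -0.47, -0.31 and -0.028 in Chga_KO livers and 0.048, 0.12 and -0.17 in WT livers. The first Chga_KO array was thus the lowest of its group for the lysosomal enzymes and the macrophage markers but the highest for the proton pump. The part of these cells in the lysosomal values was not tested.

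**Figure D5:**
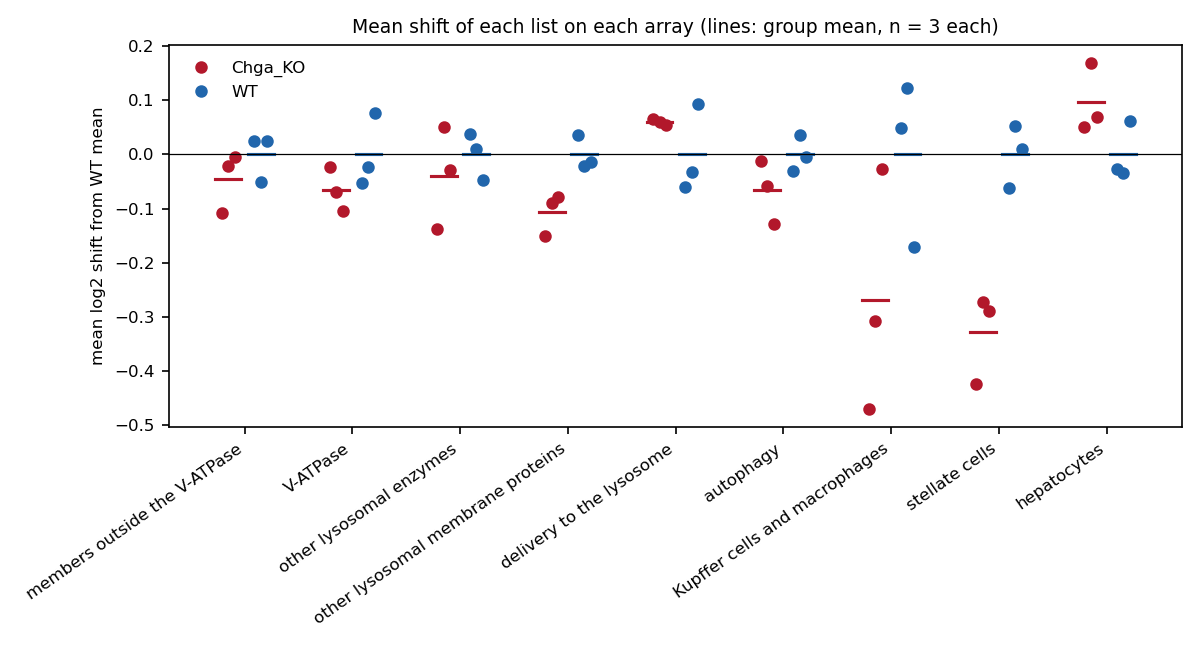
Mean log2 shift from the WT mean on each array for the lysosomal genes, related lists and cell type markers, Chga_KO left of WT, with points for arrays and lines for group means (n = 3 each). The lysosomal genes of the Chga_KO arrays stay within 0.11 of the WT mean, whereas the macrophage markers reach -0.47 on the first Chga_KO array.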

How the data were processed

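Liver RNA of 3 Chga_KO and 3 WT mice was read on 1 array each. The values the authors deposited are intensities on a linear scale, 1 for each probe set, made with GCOS 1.2 per the submitters' processing notes, and the means after trimming 2% at each end (2501.32 to 2501.42) show scaling to a common level. No build or probe summary method is named in the labels. Of 22690 probe sets, 64 controls were left out, and the brightest 60%, ranked by mean log2 value over 6 arrays, passed the filter (13576). Values were tested as log2(intensity + 16), which understates changes of dim probe sets, with limma 3.58.1 in R 4.3.3 (lmFit, eBayes with intensity trend; no covariate), with Benjamini-Hochberg adjustment over the kept probe sets at 0.05. The procedure was tested on simulated data. Background was the 95th percentile of 27 Bacillus subtilis control probe sets on each array. The platform annotation's symbols matched those of RefSeq GRCm38.p6, which gave gene order and promoters. With 3 against 3 arrays an exact permutation test cannot go below 0.1, so only the fitted model was used; the number of arrays limits the precision.

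Genes given with values are all at an unadjusted p under 0.05, 12 landmark genes where measured, the 3 brightest, genes whose probe sets disagree in sign with 1 at an unadjusted p under 0.05, and up to 4 of each related list; values of the other members were added after they were seen. Members and lists were chosen with earlier results of these data known. Alternatives were the pseudocount, normalization, filter, trend, array weights, replicate block, other probe sets, and leaving out each array.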

Additional observations from a re-analysis of the deposited data

How the results depend on the processing

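The count of lysosomal genes past the adjusted threshold was 0, and it was 1, Neu1 in each case, with a pseudocount of 64 (adjusted p = 0.0479), with the largest tried (0.0425), with the upper 40% of probe sets (0.0395) and with array weights (0.0425). With 1 array left out it stayed at 0, the higher genes at an unadjusted p under 0.05 ran from 4 to 9, the lower ones from 3 to 6, and the median change from -0.033 to 0.0011; the cause was not tested. Neu1 itself ran from -0.99 to -0.35. Of the genes in the related lists, Gabarapl1 passed after quantile normalization (0.0422), Npc1 with the largest pseudocount (0.0471), the upper 40% (0.0428) or array weights (0.0435), and Slc15a4 without WT replicate 2.

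Some values turned sign, most of them near 0 but also Ctse (0.47) and Atp6v0a1 (0.34). Lamp1 was at -0.031 after quantile normalization and -0.0032 with array weights, Gaa at 0.038 with array weights, Sqstm1 at -0.013 after quantile normalization, and Ctse at -0.14 over all its probe sets. With 1 array left out, Lamp1 ran from -0.049 to 0.037, Psap from -0.14 to 0.071, Grn from -0.011 to 0.21, Gaa from -0.17 to 0.079, Atp6v0a1 from -0.13 to 0.61 and Sqstm1 from -0.0082 to 0.048. Of 674 values for 40 genes, 647 kept their direction and their side of the threshold, 9 passed it and 18 turned.

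Arrays share replicate numbers but nothing says that these pair them. Deviations from the group means correlated between -0.065 and -0.059 for equal numbers and between -0.020 and 0.076 for unequal numbers. With the replicate block 0 lysosomal genes passed, 4 higher and 6 lower genes were at an unadjusted p under 0.05, Neu1 had an adjusted p of 0.136, and over all probe sets 27 passed in place of 51. Over all probe sets 7 passed without the intensity trend and 85 with the largest pseudocount.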

Other observations

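Some further probe sets were noticed after their values were seen. The third probe set of Lipa read 2578, 3232 and 3465 in Chga_KO livers and 2056, 1752 and 2126 in WT livers, without overlap, higher by 0.63 ± 0.16 on the log2 scale. The second probe set of the alpha-galactosidase gene Gla read 272, 281 and 312 in Chga_KO livers and 435, 603 and 671 in WT livers, without overlap, at -0.92 ± 0.34 (adjusted p = 0.388), with 2 of 3 Chga_KO arrays above background, whereas the brightest stood at -0.088 with overlapping groups. The 4 probe sets of Ctsb lay between -0.11 and 0.14.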
